A study of Arabidopsis thaliana with 42 samples.

Results

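The nuclear-encoded subunits of the photosystems and of the photosynthetic electron transport chain were followed through the life of an Arabidopsis thaliana leaf. They are 35 of the 33604 genes in the total RNA tables, chosen by gene identifier from a fixed list of known subunits, with all transcript models of a gene summed. The list holds 12 subunits of photosystem II (PSII), 12 of photosystem I (PSI), 7 genes of electron transport between and after the photosystems, 2 of the chloroplast ATP synthase and 2 of cyclic electron flow. All 35 passed the filter on low values. All RNA is from wild-type leaves, with no treatment and no other genotype, harvested every other day at 14 ages, the first on day 4 and the last on day 30 after emergence. With 2 sets per age there were 28 libraries. According to the submitters the sets are biological replicates, but whether plants, growth or extraction were separate is not stated; a p-value here therefore reflects only how these libraries vary, and that variation could be technical.

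In the thylakoid membrane, PSII takes electrons from water at its oxygen-evolving complex and passes them through the cytochrome b6f complex and the small copper protein plastocyanin to PSI. PSI hands them to ferredoxin, from which a reductase makes NADPH, and the proton gradient built on the way drives the ATP synthase. The reaction centre cores are encoded in the chloroplast genome, while the subunits described here are encoded in the nucleus and imported. Leaf ageing is known for the dismantling of chloroplasts.

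Of the PSII genes, 6 belong to the oxygen-evolving complex: PSBO1 (AT5G66570) and PSBO2 (AT3G50820), which stabilise the manganese cluster, PSBP1 (AT1G06680), PSBQ1 (AT4G21280) and PSBQ2 (AT4G05180), which bind over it, and PSBR (AT1G79040), which helps anchor them. The low-mass subunits were PSBW (AT2G30570), PSBX (AT2G06520), PSBY (AT1G67740) and PSBTN (AT3G21055), while PSBS (AT1G44575) acts in photoprotection and PSB27 (AT1G03600) in assembly and repair. In PSI, PSAD1 (AT4G02770), PSAD2 (AT1G03130), PSAE1 (AT4G28750) and PSAE2 (AT2G20260) form the stromal ridge on which ferredoxin docks, and PSAF (AT1G31330) and PSAN (AT5G64040) lie at the plastocyanin side. PSAG (AT1G55670) and PSAK (AT1G30380) are membrane subunits at the antenna, and PSAH1 (AT3G16140), PSAH2 (AT1G52230), PSAL (AT4G12800) and PSAO (AT1G08380) lie where the mobile antenna docks. The electron transport genes encode the Rieske protein of cytochrome b6f, PETC (AT4G03280), plastocyanin, PETE1 (AT1G76100) and PETE2 (AT1G20340), ferredoxin, FD1 (AT1G10960) and FD2 (AT1G60950), and ferredoxin NADP reductase, FNR1 (AT5G66190) and FNR2 (AT1G20020). The ATP synthase is represented by its gamma and delta subunits, ATPC1 (AT4G04640) and ATPD (AT4G09650), and cyclic electron flow by PGR5 (AT2G05620) and PGRL1A (AT4G22890).

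Stages were taken as young (days 4, 6 and 8), mature (days 14, 16 and 18) and old (days 26, 28 and 30), each with 6 libraries, so that the spread within a stage holds 3 ages as well as 2 sets. Levels are FPKM, fragments scaled to transcript length and to the size of the library, which can be compared between genes but do not give the read depth. Summed FPKM was between 439949 and 484348 in 27 libraries and 331479 in the day 4 library of set 1. That library stood apart in other ways too: nuclear rRNA and tRNA genes took 1.13% of its FPKM and 0.0148% in the day 4 library of set 2, and the correlation between sets across genes was 0.934 at day 4 and 0.976 to 0.99 at the other ages. The leaf label was checked on 4 mesophyll markers, which summed to between 5801 and 7628 FPKM in mature leaves, while 3 of 4 meristem and flower markers and both root markers were at 0 in all 6 mature libraries. In bulk RNA, fewer cells of a type and less RNA per cell cannot be told apart.

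The 35 genes were among the abundant transcripts of the leaf, and in both sets most peaked at day 8 or 10. From day 4 to day 6 their sum rose in set 1, from 17284 to 25242 FPKM. In set 2 it fell, from 30809 to 28172 FPKM. After the peak, levels declined slowly through maturity and faster afterwards. On a log scale the fall was steepest between day 26 and day 30, but much of the level was lost before. The sum of the 35 genes was at 62% and 64.4% of its mature mean at day 22 in sets 1 and 2, and at 41.7% and 46.5% at day 26. Their summed FPKM made up 7.05% to 8.76% of that of all nuclear genes in the 6 young libraries (median 7.65%), 5.36% to 6.78% in the mature ones (median 6.12%) and 0.39% to 2.9% in the old ones (median 1.41%). The 3 ranges did not overlap. The sum peaked at day 8 in both sets, at 29277 FPKM in set 1 and 33562 FPKM in set 2, and at day 30 it was 5.4% and 7.82% of that peak. All 35 genes varied across the 14 ages (limma F test, Benjamini-Hochberg adjusted p under 0.05), as did 91% of all 18239 genes tested.

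**Figure D1:**
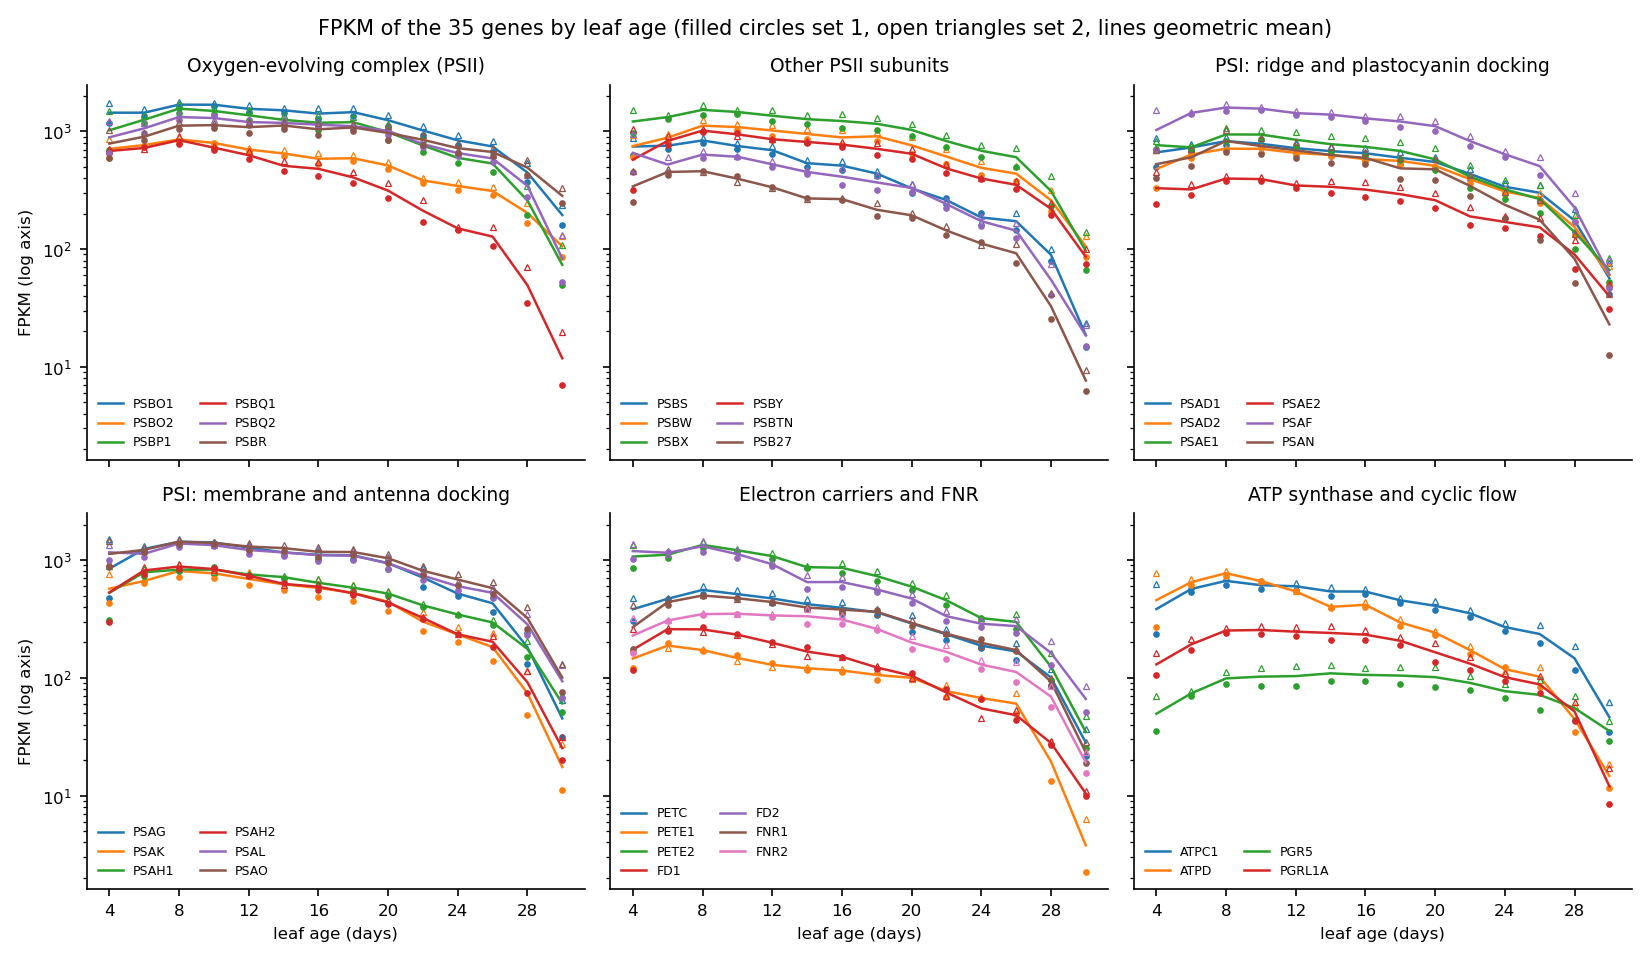
FPKM of each of the 35 genes on a log axis against leaf age in days, in 6 panels by role, with filled circles for set 1, open triangles for set 2 and lines at their geometric mean. Most lines peak at day 8 or 10 and drop most steeply from day 26 to day 30. PGR5 and PSBR drop least.

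Single genes followed the sum closely. In set 1, 17 genes were highest at day 8, 15 at day 10, 2 at day 6 and 1 (PGR5) at day 16. In set 2, 23 were highest at day 8, 5 at day 4, 3 at day 6, 1 at day 10 and 3 at day 14. The sets differed at the start: from day 4 to day 6 only 1 gene was lower in set 1, while 26 of 35 were lower in set 2. PSAG, for example, stood at 475 FPKM at day 4 in set 1 and at 1503 FPKM in set 2. After day 18 the decline hardly paused, and 34 genes in set 1 and 25 in set 2 were lower at every one of the 6 following samplings than at the one before. The exception in set 1 was PETE1 from day 18 to day 20, and those in set 2 all came between day 24 and day 26. Mature levels spanned a 13.6-fold range, from 108 FPKM for PGR5 to 1466 FPKM for PSBO1, with a median of 591 FPKM.

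From young to mature leaves the genes did not move together. By limma with set as a block, 11 of 35 were lower in mature leaves, against 16.7% of all genes tested, 3 were higher, against 51.6% of all genes, and 21 did not pass. The median log2 change was -0.13, while that of all genes was 0.32. Lower were 5 of 12 PSII genes, 5 of 7 electron transport genes and ATPD. None of the 12 PSI genes passed, with changes between -0.32 and -0.03 (in limma 0 passed at an unadjusted p of 0.05 as well). The higher ones were PSBR and both cyclic flow genes.

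These counts rested in part on the day 4 library of set 1. Without it, 18 members were lower and 2 higher, among the lower ones PSAD1, PSAE2, PSAH1 and PSAH2 of PSI. Without day 4 in both sets 18 were lower and only PGR5 was higher, where 19.5% of all genes were called lower and 47.5% higher. When nuclear genes were rescaled to the same sum in every library, 19 were lower and only PGR5 was higher. With that rescaling 21.6% of all genes were called lower and 47.1% higher. Quantile normalization left 8 lower and 3 higher, and moved the median change of all genes from 0.32 to 0.03, with 33.9% of all genes then called higher and 30% lower. Clock genes also moved with this comparison: 8 of 9 were higher in mature leaves, and their summed level was 45.8 to 107 FPKM in young and 181 to 208 FPKM in mature libraries, among them LHY at 1.80 ± 0.18 (log2 change ± SE, adjusted p = 1.22e-07), CCA1, TOC1, PRR5, PRR7, PRR9, GI and ELF3, while LUX was lower. The sources used here do not give the hour of harvest, and its part in the members' changes was not tested.

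All 4 genes of the small soluble carriers ferredoxin and plastocyanin were lower in mature leaves, with FD2 showing the largest fall of the 35 genes. FD2, the more abundant of the leaf ferredoxin genes, was at 1029 FPKM in its lowest young library, 1177 at the median and 1462 in its highest, and at 534, 595 and 741 FPKM in mature leaves. The young and mature libraries of FD2 did not overlap, and the change was -0.97 ± 0.10 (adjusted p = 1.1e-07). Its partner FD1 was at 116 to 271 FPKM (median 255) and then at 119 to 181 (median 151), overlapping only through day 4 of set 1, with a change of -0.63 ± 0.15 (adjusted p = 0.000956). For the plastocyanin genes the changes were -0.52 ± 0.11 for PETE2 and -0.56 ± 0.16 for PETE1, and PETE2 did not pass with quantile normalization (-0.26, adjusted p = 0.1). PETC, the Rieske iron-sulfur protein of cytochrome b6f, was lower by less (-0.25 ± 0.09, adjusted p = 0.0233) and did not pass without the block (adjusted p = 0.169) or with quantile normalization (-0.17, adjusted p = 0.11). The call of PETC also ended when day 6 or day 8 of set 1, or day 14 or day 18 of set 2, was left out (adjusted p = 0.0856, 0.0625, 0.0523 and 0.0671). FNR1 and FNR2, the ferredoxin NADP reductases, did not pass, at -0.04 ± 0.14 and 0.05 ± 0.12. FNR1 was called lower without day 4 (-0.30, adjusted p = 0.00465) and with only day 4 of set 1 left out (-0.23, adjusted p = 0.0193).

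In PSII, the falling genes were of several kinds. PSBQ1, an extrinsic subunit of the oxygen-evolving complex, went from 653 to 906 FPKM in young leaves (median 723) to 364 to 564 in mature ones (median 458), and PSBS, the sensor of energy-dependent quenching, from 629 to 882 (median 801) to 414 to 573 (median 488). Neither gene's stages overlapped, and these 2 with FD2 were the only members with no overlap, 3 of 35 where 7.23% of all genes lay below without overlap. Their changes were -0.68 ± 0.15 and -0.65 ± 0.10 (adjusted p = 0.000542 and 1.71e-05). PSB27, which acts in PSII assembly and repair, changed by -0.73 ± 0.13, the low-mass subunit PSBTN by -0.56 ± 0.12 and PSBO2, a manganese-stabilising subunit, by -0.35 ± 0.09. PSBO2 did not pass with quantile normalization (-0.15, adjusted p = 0.209). In contrast, PSBO1, PSBP1, PSBQ2, PSBW, PSBX and PSBY did not pass, with changes between -0.15 and 0.08, although PSBY was called lower without day 4 (-0.26, adjusted p = 0.00625) and PSBO1 and PSBX with rescaled nuclear genes (-0.21 and -0.30). PSBR, which helps anchor the extrinsic subunits, was higher by 0.22 ± 0.08 (adjusted p = 0.0226), a call lost without day 4 (0.11, adjusted p = 0.163), without the block (adjusted p = 0.195), without the filter on low values (adjusted p = 0.0689) and with rescaled nuclear genes (0.07, adjusted p = 0.345). It was also lost when any of 5 single libraries was left out (days 4, 14 and 18 of set 1 and days 6 and 8 of set 2), with changes of 0.14 to 0.21 and adjusted p from 0.054 to 0.0645.

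Of the ATP synthase genes, ATPD for the delta subunit was lower in mature leaves, and ATPC1 for the gamma subunit did not pass. ATPD went from a young median of 716 FPKM (268 to 810) to a mature median of 395 (275 to 439), a change of -0.74 ± 0.16 (adjusted p = 0.000647), and apart from day 4 of set 1 its stages did not overlap. ATPC1 stood at a young median of 606 FPKM (237 to 723) and a mature median of 504 (434 to 589) (-0.04 ± 0.14). Without day 4 it was called lower (-0.27, adjusted p = 0.024), as it was with only day 4 of set 1 left out (-0.22, adjusted p = 0.0494), and the difference between both genes was not tested. PGR5, a small protein needed for cyclic electron flow around PSI, was higher in mature leaves, at 87.9 to 128 FPKM (median 106) after 35.3 to 111 (median 73.8), by 0.57 ± 0.10 (adjusted p = 4.51e-05). Its membrane partner PGRL1A was higher by 0.29 ± 0.10 (adjusted p = 0.013), which fell to 0.04 without day 4 (adjusted p = 0.74) and was not called without the block (adjusted p = 0.145) or with rescaled nuclear genes (0.14, adjusted p = 0.188), nor with day 8 of set 2 left out (adjusted p = 0.0502).

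From mature to old leaves all 35 genes fell, where 27.1% of all genes were lower and 48.3% higher. The median change was -2.38 on the log2 scale, with 0.26 for all genes, and it was -2.50 in set 1 and -2.23 in set 2. With quantile normalization all 35 fell as well (median -2.36), while 38.5% of all genes were called higher and 35.3% lower, with a median of 0.04. In 34 of 35 genes every old library lay below every mature one, against 15.8% of all genes. The exception was PGR5. Changes ran from -3.41 for PSBQ1 to -1.02 for PGR5, and the largest adjusted p was 2.29e-08. Medians by complex were -2.17 for PSII, -2.32 for PSI, -2.47 for electron transport, -2.62 for ATP synthase and -1.77 for cyclic flow, with wide ranges inside each.

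Markers of tissues and of ageing moved over the same interval, and so did the share of FPKM in nuclear rRNA and tRNA genes, from 0.0209% to 0.0383% in mature to 0.0452% to 0.348% in old libraries, without overlap. All 4 mesophyll markers fell, from a summed 5801 to 7628 FPKM in mature to 381 to 3536 in old libraries. They serve photosynthesis, as the members do, and are not a separate measure of mesophyll cells. The carbonic anhydrase gene CA1 changed by -5.74 ± 0.20 (adjusted p = 2.37e-14), LHCB1.3 by -2.56 ± 0.14, RBCS1A by -2.35 ± 0.09 and RCA by -1.61 ± 0.09. Of 5 vascular markers SUC2, IRX3, IRX5 and XCP1 fell and APL rose, and their sum was 190 to 249 FPKM in mature and 110 to 154 in old libraries. Of 4 guard cell markers FAMA rose, MYB60 fell and HT1 and TMM did not pass, with sums of 5.63 to 8.2 and 5.44 to 10.2 FPKM. Among senescence markers 3 of 4 rose, SAG12 from 0 to 3.29 FPKM in mature leaves to 126 to 3134 in old ones, NAP by 2.65 ± 0.35 and ORE1 by 2.77 ± 0.25, while SEN1 did not pass. The floral marker AG, at 0.299 to 1.08 FPKM in mature leaves, was lower by 0.34 on the log2 scale. Of 9 clock genes 5 rose (TOC1, PRR5, GI, ELF3 and LUX), 2 fell (CCA1 and PRR7) and 2 did not pass (LHY and PRR9). The part of cell make-up, of the hour or of what raised the rRNA share in the members' fall was not tested.

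**Figure D2:**
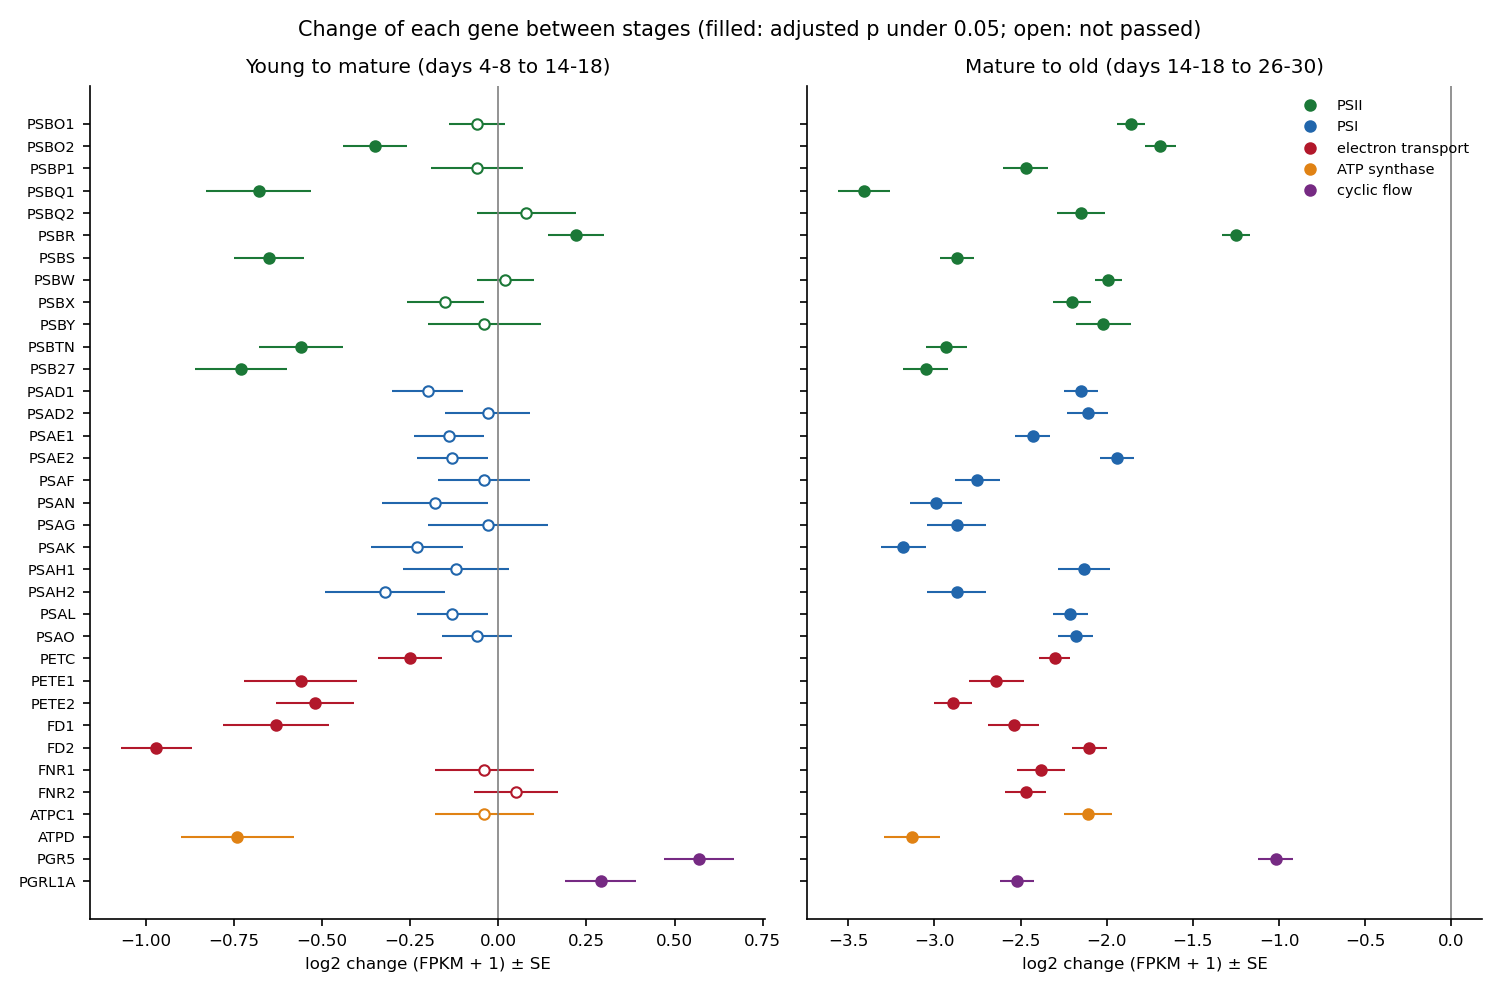
Log2 change of FPKM + 1 with its standard error for each of the 35 genes from young to mature (left) and from mature to old (right), coloured by complex; filled points passed an adjusted p of 0.05 and open points did not. On the left 11 genes lie below 0 and 3 above among those that passed; on the right all 35 lie between -3.41 and -1.02.

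Within the oxygen-evolving complex the fall differed widely. PSBQ1 was at 364, 458 and 564 FPKM (lowest, median and highest) in mature leaves and at 7.02, 52.4 and 154 FPKM in old ones, a change of -3.41 ± 0.15. PSBQ2, the more abundant PSBQ gene in mature leaves, fell less, from 1063, 1126 and 1264 FPKM to 52.4, 352 and 632 (-2.15 ± 0.14). PSBP1, another extrinsic subunit, fell from 1024, 1230 and 1370 FPKM to 50, 270 and 632, by 2.47 ± 0.13 on the log2 scale. Of the manganese-stabilising genes, PSBO1 fell from a median of 1498 to 455 FPKM and PSBO2 from 618 to 207 FPKM, by 1.86 ± 0.08 and 1.69 ± 0.09. PSBR kept the most: 926, 1097 and 1212 FPKM became 244, 498 and 717, a change of -1.25 ± 0.08 (adjusted p = 1.59e-10). At day 30 PSBR still held 24.5% and 27.9% of its mature level in sets 1 and 2, when PSBQ1 held 1.69% and 3.8%. The other PSII genes lay between, from PSBW (-1.99 ± 0.08) and PSBY (-2.02 ± 0.16), through PSBX (-2.20 ± 0.11), to PSBS (-2.87 ± 0.10), PSBTN (-2.93 ± 0.12) and PSB27 (-3.05 ± 0.13). PSB27 in the old stage was at 6.22 FPKM in its lowest library and 111 in its highest, after 191 to 274 FPKM in mature leaves.

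PSI genes fell by 1.94 to 3.18 on the log2 scale. The largest change was that of PSAK, a membrane subunit next to the antenna, from 448, 589 and 691 FPKM to 11.1, 81.2 and 241 (-3.18 ± 0.13). PSAN, a lumenal subunit near the plastocyanin docking site, changed by -2.99 ± 0.15, and PSAF, which docks plastocyanin, by -2.75 ± 0.13. PSAG, the close relative of PSAK in the membrane, changed by -2.87 ± 0.17. In the stromal ridge, where ferredoxin binds, the changes were -2.15 ± 0.10 for PSAD1, -2.11 ± 0.12 for PSAD2, -2.43 ± 0.10 for PSAE1 and -1.94 ± 0.10 for PSAE2. Among the subunits that dock the mobile antenna, PSAH2 fell most (-2.87 ± 0.17), while PSAH1 (-2.13 ± 0.15), PSAL (-2.21 ± 0.10) and PSAO (-2.18 ± 0.10) fell by similar amounts. None of the 12 had a mature library as low as its highest old one.

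In electron transport the changes were closer together. PETE2, the abundant plastocyanin gene, went from 658, 831 and 948 FPKM to 25.4, 128 and 345 (-2.89 ± 0.11). PETE1, at 96.3 to 124 FPKM in mature leaves, reached 2.24 FPKM at day 30 in set 1 and 6.34 FPKM in set 2 (-2.64 ± 0.16). The values at FPKM this low are those most compressed by the added 1. PETC changed by -2.30 ± 0.09, FD1 by -2.54 ± 0.15, FD2 by -2.10 ± 0.10, FNR1 by -2.38 ± 0.14 and FNR2 by -2.47 ± 0.12. ATPD fell from a median of 395 to 46 FPKM (-3.13 ± 0.16), more than ATPC1, which fell from 504 to 150 FPKM (-2.11 ± 0.14).

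The cyclic flow partners were far apart. PGRL1A fell from 190, 218 and 274 FPKM to 8.42, 52.7 and 103 (-2.52 ± 0.10), and at day 30 it held 4.13% and 6.81% of its mature level. Its paralogue PGRL1B, which is not a member, did not share this fall. PGRL1B was at 15.6 to 26.8 FPKM in mature and 21.4 to 38.8 FPKM in old libraries. At day 30 it stood at 38.8 and 35.8 FPKM in sets 1 and 2, above PGRL1A at 8.42 and 17.1 FPKM. PGR5 fell from 87.9, 106 and 128 FPKM to 28.8, 48.8 and 95.4 (-1.02 ± 0.10, adjusted p = 2.29e-08). The overlap of PGR5 came from a difference between sets: the old library at 95.4 FPKM was day 26 of set 2, where mature levels were 120 to 128 FPKM, whereas in set 1 mature levels were 87.9 to 93.3 FPKM and no old library was above 53.7 FPKM. Within each set its stages did not overlap. PGR5 was thus higher at maturity than in young leaves and changed least afterwards.

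The fall into old age came in steps of unequal size, of which those from day 24 on were fitted. Before them, all 35 genes were lower at day 22 than at day 20, and at day 24 than at day 22, in both sets. From day 24 to day 26 the median change was -0.19 (all genes 0.00), and 0 members passed in limma, either adjusted or at an unadjusted p of 0.05, where 0.0164% of all genes were called lower and 0.269% higher. The sets differed there, since all 35 genes were lower at day 26 in set 1 (median -0.33) and 25 of 35 in set 2 (median -0.08). From day 26 to day 28 the median was -0.84 (all genes -0.02); 28 members fell, against 3.39% of all genes called lower and 4.99% higher, and 0 rose. From day 28 to day 30 all 35 fell, against 21.8% of all genes called lower and 9.01% higher, with a median of -1.67 (all genes -0.18), -1.76 in set 1 and -1.60 in set 2. With quantile normalization 15.7% of all genes were called lower and 16.3% higher in this last step, and all 35 members fell. The changes ran from -2.20 to -0.63. The smallest was that of PGR5, which did not pass without the block (adjusted p = 0.205), nor when day 30 of set 1 or day 28 of set 2 was left out (0.0648 and 0.0738).

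The count for days 26 to 28 depended on the fit. So did the share of all genes: with the set left out, 1.78% were called lower and 3.93% higher. That share is not given here for fits with single libraries left out. Each day has 2 libraries, and all 35 genes were lower at day 28 than at day 26 in both sets, with medians of -0.95 and -0.75. With the set left out of the fit 7 members passed, and when single libraries were left out between 5 (without the day 28 library of set 1) and 35 passed; without the day 26 library of set 2 the count was 9.

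**Figure D3:**
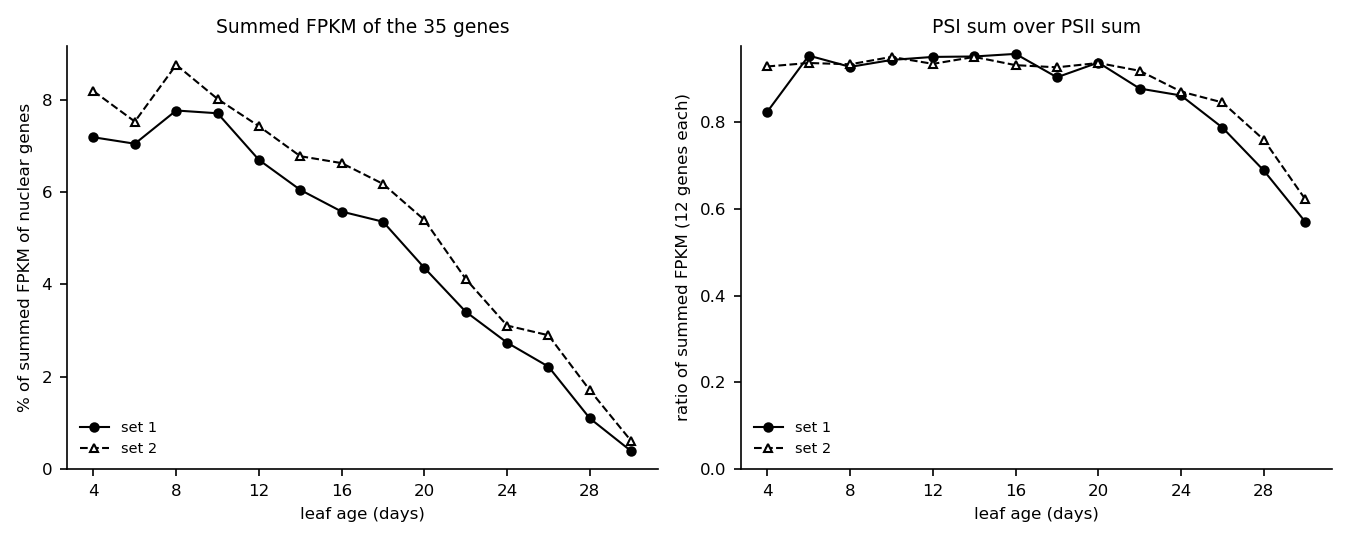
Left, the summed FPKM of the 35 genes as a percentage of the summed FPKM of nuclear genes, and right, the summed FPKM of the 12 PSI genes over that of the 12 PSII genes, both against leaf age in days, with filled circles for set 1 and open triangles for set 2. From its highest at day 8 to day 30 the share drops from 7.77% to 0.39% in set 1 and from 8.76% to 0.61% in set 2. The ratio drops from 0.904 to 0.958 in mature leaves to 0.571 and 0.623 at day 30.

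Summed over each complex, PSI transcripts stood lower against PSII transcripts in old leaves. The summed FPKM of the 12 PSI genes was 0.904 to 0.958 of that of the 12 PSII genes in the mature libraries and 0.571 to 0.846 in the old ones (medians 0.942 and 0.724). In young libraries the ratio was 0.825 to 0.954 (median 0.931), and its lowest value, day 4 of set 1, lay inside the old range. No old library reached the mature range, and the lowest values were those of day 30, 0.571 in set 1 and 0.623 in set 2. At day 30 PSII genes summed to 9.37% and 12.6% of their mature level and PSI genes to 5.71% and 8.39%. Electron transport genes were then at 5.58% and 8.03%, ATP synthase genes at 5.5% and 8.68% and cyclic flow genes at 12.5% and 16%. These sums follow their most abundant genes, and the order of the complexes is a description of them with no test.

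To set the genes in order, the day was found at which each level, interpolated between samplings, crossed 50% of its own mean over days 14 to 18. Samplings lie 2 days apart, so differences well under 2 days are not resolved. The crossing came between days 21.3 and 27.6 in set 1 (median 24.1) and between days 21.7 and 28.6 in set 2 (median 23.9). The earliest were ATPD (day 21.6 ± 0.22, SD of 2 sets), PSBQ1 (21.6 ± 0.52), FD1 (22.3 ± 0.52), PSAK (22.3 ± 0.48) and PSBS (22.5 ± 1.00). These genes had lost 50% of their mature level before day 24 in both sets. The latest were PSBO2 (26.1 ± 0.10), PSBQ2 (26.2 ± 0.16), PSBR (27.5 ± 0.32) and PGR5 (28.1 ± 0.66), which were above 50% at day 26 in both sets. The crossing days of the sets correlated at r = 0.91 and rho = 0.91 across the 35 genes, a description over genes that share libraries. The spread between sets was 0.32 days at the median and 1.32 days at most, for ATPC1.

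**Figure D4:**
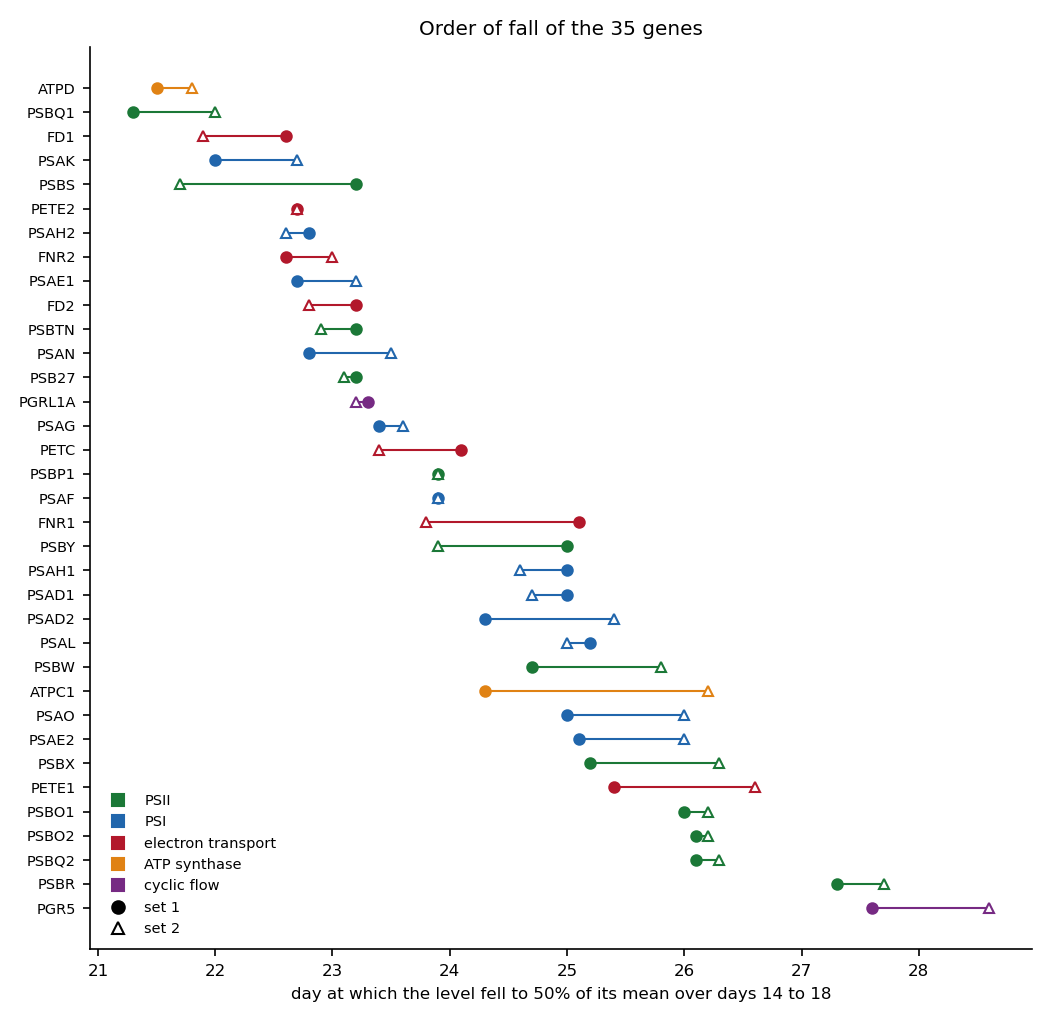
Day at which each of the 35 genes crossed 50% of its mean over days 14 to 18, in order of the mean of both sets, with filled circles for set 1, open triangles for set 2 and colours for complexes. ATPD and PSBQ1 cross first, near day 21.6, and PSBR and PGR5 last, at days 27.5 and 28.1; every complex with more than 2 genes is spread over at least 3 days.

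No complex fell as a block. Crossing days ran from 21.6 to 27.5 in PSII (median 24.9), from 22.3 to 25.6 in PSI (median 24.4) and from 22.3 to 26.0 in electron transport (median 23.0). Both ends of the order held subunits of the same structure: PSBQ1 came next after ATPD, while PSBQ2, PSBO1, PSBO2 and PSBR were among the last 5, all in the oxygen-evolving complex. ATPD was first and ATPC1, of the same ATP synthase, was number 26 of 35. PETE2 crossed at day 22.7 ± 0.03 and PETE1 at day 26.0 ± 0.86. Abundance and loss were only weakly related: the log2 mature level and the log2 change to old leaves correlated across the 35 genes at r = 0.07 and rho = 0.25.

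For 8 subunits the list holds a pair of paralogues, and their ratios were compared between stages by exact two-sided permutation of stage labels within sets (400 arrangements, smallest p = 0.005), adjusted over 16 tests. The coding sequences within such pairs are alike, and the sources used here do not say how reads shared by both copies were divided, so the ratios are less certain than the sums. The libraries of a stage within a set are consecutive ages, permuted here as if they were interchangeable, while only the sets are replicates. A ratio that drifts steadily with age separates the stages and so reaches the smallest p. A small p from these permutations therefore reflects order along age and not the variation between independent replicates. All ratios below are of FPKM.

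The PSBQ pair shifted most. PSBQ1 over PSBQ2 was 0.584 at its lowest, 0.636 at the median and 1 at its highest in young leaves, then 0.343, 0.407 and 0.459 in mature leaves and 0.125, 0.157 and 0.244 in old ones. The stages did not overlap, and the log2 ratio changed by -0.77 and then by -1.26 (adjusted p = 0.0114 for both, the smallest these tests can give). The ratio of 1 was day 4 of set 1, where set 2 was at 0.58.

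PSAH1 over PSAH2 went the other way. It was 0.913, 0.965 and 1.05 in young, 1.07, 1.1 and 1.18 in mature and 1.38, 1.92 and 2.56 in old leaves, with no overlap between stages. The log2 ratio rose by 0.20 and then by 0.75 (adjusted p = 0.0114 for both). Transcripts of these antenna-docking paralogues were thus near parity until day 18, and at day 30 PSAH1 stood 2.56 and 2.25 times above PSAH2 in sets 1 and 2.

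PSAE1 over PSAE2 was level and then fell. Its median was 2.32 in young and 2.31 in mature leaves (difference in log2 ratio -0.01, adjusted p = 0.965), but in young leaves it spread from 1.85 to 2.91, both extremes at day 4. In old leaves it was 1.47, 1.65 and 1.9, below all mature libraries, with a change of -0.49 (adjusted p = 0.0114).

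PSBO1 over PSBO2 rose from 1.81, 1.98 and 2.06 in young to 2.31, 2.41 and 2.51 in mature leaves, without overlap (0.29, adjusted p = 0.0114). In old leaves it was 1.84, 2.2 and 2.44 and the change of -0.17 did not pass (adjusted p = 0.0533), although it did without the day 26 library of either set (-0.20 and -0.21, adjusted p = 0.03 and 0.02). Among the old days, day 30 was lowest in both sets, at 1.86 and 1.84.

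FD1 over FD2 was 0.113 to 0.236 in young leaves (median 0.2), 0.208 to 0.318 in mature leaves (median 0.218) and 0.126 to 0.211 in old leaves (median 0.175). The later change passed (-0.43, adjusted p = 0.0114), though the ranges overlapped slightly through day 28 of set 1. The earlier one did not (0.34, adjusted p = 0.144), but passed with day 6 of set 2 left out (0.41, adjusted p = 0.0444). FD2 remained the more abundant ferredoxin in all 28 libraries.

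In the other pairs no change was called from mature to old leaves. PSAD1 over PSAD2 was 1.09 to 1.51 in young and 0.986 to 1.2 in mature leaves (-0.17, adjusted p = 0.04), a call lost without the block (adjusted p = 0.1) and when any of 6 single libraries was left out (days 14, 16 and 18 of set 1 and days 4, 8 and 18 of set 2). It did not pass from mature to old leaves (-0.03, adjusted p = 0.766). PETE1 over PETE2 had medians of 0.137, 0.14 and 0.158 and passed in neither comparison (adjusted p = 0.768 and 0.145), except from mature to old with day 30 of set 1 left out (0.34, adjusted p = 0.01). FNR1 over FNR2 had medians of 1.38, 1.3 and 1.25 and passed in neither (adjusted p = 0.511 and 0.473). A p above the threshold does not show that these ratios stayed the same.

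**Figure D5:**
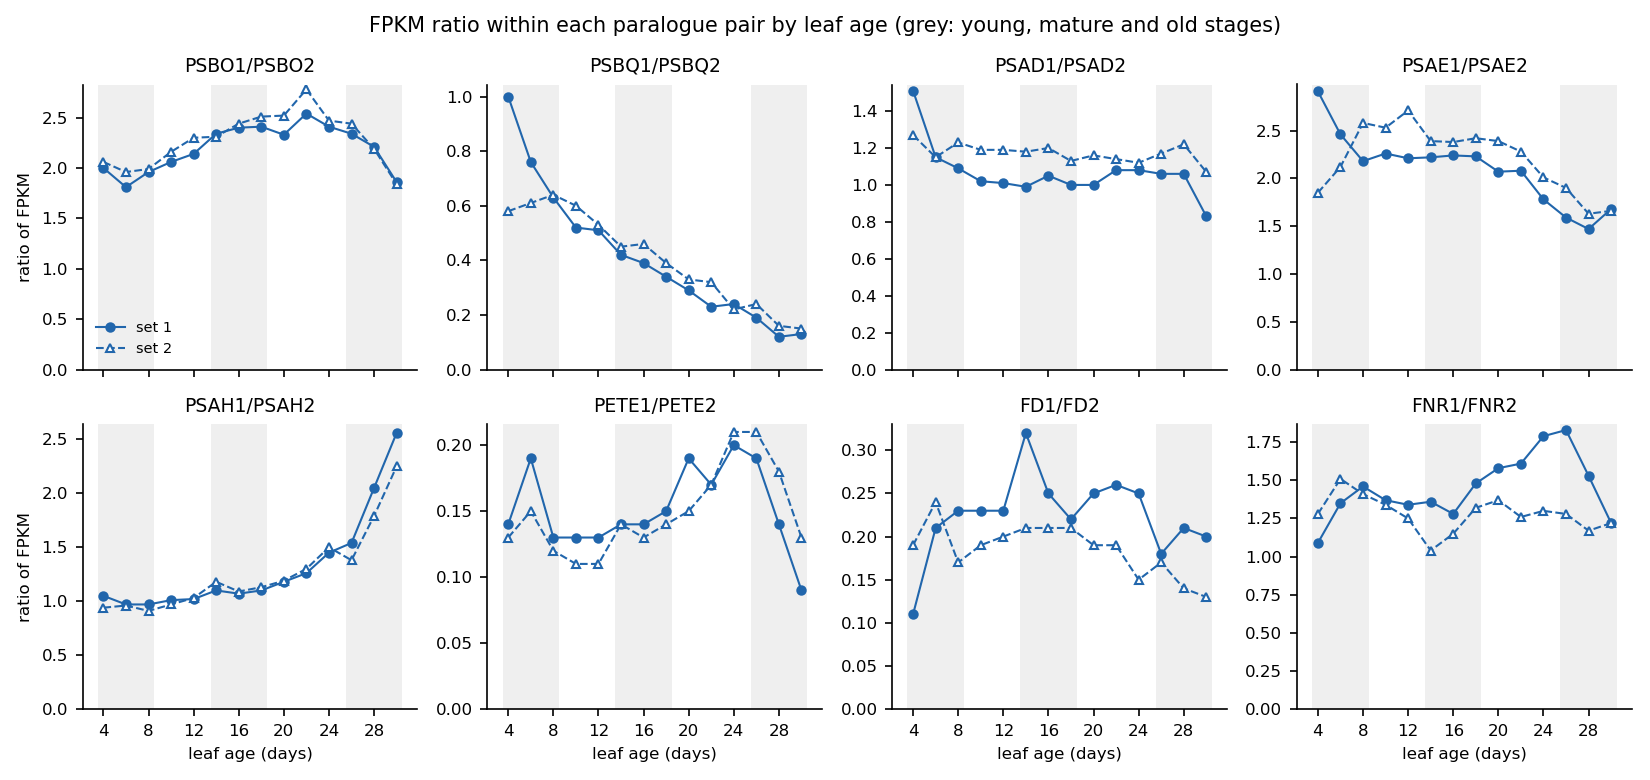
Ratio of FPKM within each of 8 paralogue pairs against leaf age in days, with filled circles and solid lines for set 1, open triangles and dashed lines for set 2 and grey bands for the young, mature and old stages; each vertical axis starts at 0. PSBQ1/PSBQ2 declines from day 8 on with small reversals, from 0.63 and 0.64 to 0.13 and 0.15 at day 30 in sets 1 and 2. From day 4 to day 8 it falls from 1.00 in set 1 and rises from 0.58 in set 2. PSAH1/PSAH2 climbs to 2.56 and 2.25 at day 30.

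Transcript models hardly bear on these values. More than 1 model is listed for 8 members, and in 7 of them the first-numbered model held at least 97.9% of the gene's FPKM in every library. In PGRL1A it held 77.45% to 95.04%.

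Partner genes of the same machinery also changed from mature to old leaves, where 27.1% of all genes were called lower and 48.3% higher. Of 18 nuclear-encoded subunits of the NDH complex, which carries another route of cyclic flow, all fell from mature to old leaves (median -2.85), with PNSL1 at -4.31 ± 0.20 and NDHL at -3.88 ± 0.27. Of 16 other nuclear subunits and electron carriers 10 fell, 3 rose and 3 did not pass (median -1.52). TIC62, which tethers the reductase to membranes, changed by -3.40 ± 0.17 and PSAP by -3.38 ± 0.13. FD3, a root-type ferredoxin, rose from 5.08 ± 0.82 to 20.2 ± 4.89 FPKM (SD, n = 6; 1.78 ± 0.12, adjusted p = 1.66e-10), and PTOX, the plastid terminal oxidase, from 20.8 ± 1.38 to 42.7 ± 9.48 FPKM (0.98 ± 0.13, adjusted p = 1.41e-06). Neither gene's old libraries overlapped its mature ones.

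Against the same 27.1% of all genes called lower, of 15 assembly factors of the thylakoid complexes 14 fell and 1 did not pass (median -1.66), with PPD1, a PSI assembly factor, at -2.36 ± 0.10 and HCF136, a PSII assembly factor, at -2.29 ± 0.13. Of 9 regulators 7 fell, 1 rose and 1 did not pass (median -0.82). Those with the largest falls were STN8, a kinase that phosphorylates PSII core proteins (-1.62 ± 0.09), and GLK2, a transcription factor of photosynthesis genes (-1.46 ± 0.20). The light-signalling factor HY5 rose from 3.33 ± 0.535 to 12.0 ± 7.02 FPKM (1.43 ± 0.13, adjusted p = 1.39e-08). From young to mature leaves, where 51.6% of all genes were called higher and 16.7% lower, 7 of these 9 regulators had risen and 0 had fallen. Of 23 chloroplast-encoded genes for partner subunits 20 fell from mature to old leaves, 3 did not pass and 0 rose (median -1.43), with ATCG00470 (-2.27 ± 0.09) and ATCG00130 (-2.26 ± 0.11) the largest. Chloroplast-encoded genes together took 15% to 17.7% of all FPKM in mature and 4.99% to 11.1% in old libraries. The difference in size of change between these lists and the members was not tested.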

How the data were processed

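Total RNA of 28 libraries was used; 14 small RNA libraries were not used here. The submitters' processing notes name TopHat 1.4.0, Cufflinks and TAIR10. The authors deposited FPKM per transcript in 1 table per set; the fragments behind a value are unknown, so no counting error can be given. Transcripts (41673) were summed to 33604 genes. log2(FPKM + 1), a scale that understates changes of low genes, was fitted with limma 3.58.1 (trend, R 4.3.3) for the 18239 genes that reached 1 FPKM in 2 or more libraries, with day as a factor and set as a block. Benjamini-Hochberg adjustment ran over all of them (threshold 0.05). The fit was tested on simulated data. Ratios and crossing days were computed in Python 3.11.15 with numpy 2.4.6 and pandas 2.3.3, and plots with matplotlib 3.10.9. The sets are named in the labels and deposited apart; correlations of their differences between days, across tested genes, were above 0.1 in 66 of 91 pairs of days (-0.15 to 0.65, median 0.23). Gene identifiers were found in RefSeq (TAIR10.1) for all 35 members, though some symbols differ there, such as NPQ4 for PSBS and DRT112 for PETE2. Chloroplast identifiers were not matched to names.

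The members, the 12 other lists (113 genes) and the tests were chosen with earlier results of these data known. The genes named are all members, all clock, tissue and senescence markers and, per other list, the 2 largest changes past the threshold in each direction from mature to old leaves. PGRL1B was named in addition, as the paralogue of PGRL1A. Lists are described by counts beside the share of all genes, with no test of a list. Alternatives tried were a pseudocount of 0.1, no filter, quantile normalization, rescaled nuclear genes, no block, first-numbered models, other reference days, and leaving out day 4 or each library. Fits without day 4 for the comparisons after maturity were added after seeing the data.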

Additional observations from a re-analysis of the deposited data

Results flagged for a closer look

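In each stage, of 6 libraries, the gap between the lowest or highest library and its neighbour was divided by the whole range of log2(FPKM + 1), and a gap above the critical ratio of 0.625 was singled out. This was done for the 35 genes and 8 paralogue ratios in 3 stages, 129 groups in all, and 15 stood out. The critical ratio singles out about 1 in 20 groups of independent values from 1 distribution. Here each group holds 3 ages and the groups share libraries, so the 15 cannot be read against that rate.

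In 13 of the 15 the day 4 library of set 1 lay far below the other young libraries. Of PSII, 2 genes, PSBY (ratio 0.731) and PSB27 (0.827), were among them, with 5 PSI genes: PSAD2 (0.750), PSAF (0.784), PSAG (0.794), PSAH1 (0.815) and PSAH2 (0.804). The carriers and reductases PETE1 (0.701), FD1 (0.883), FNR1 (0.820) and FNR2 (0.815) and the ATP synthase genes ATPC1 (0.736) and ATPD (0.742) showed the same. PSBY, for instance, was at 316 FPKM there and between 759 and 1048 FPKM in the other 5 young libraries. The same library had the low summed FPKM and the higher share of rRNA and tRNA described above, and whether these account for the low values was not tested.

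The remaining 2 were single cases. PSB27 was at 191 FPKM at day 18 of set 1, below its 5 other mature libraries (0.682). The ratio of PSAD1 to PSAD2 was 0.83 at day 30 of set 1, below its other old libraries (0.628).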

How the results depend on the processing

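From mature to old leaves all 35 members were lower and 0 higher under every alternative run, and all 35 varied over the ages. From day 24 to day 26 no alternative called a member. Counts from young to mature leaves, 11 lower and 3 higher, depended on the processing. Rescaled nuclear genes gave 19 lower and 1 higher, leaving out day 4 gave 18 and 1, and dropping the block gave 1 higher. In that order, 21.6%, 19.5% and 15.9% of all genes were then called lower, and 47.1%, 47.5% and 49.8% higher. With single libraries left out, lower calls were 10 to 18 and higher calls 1 to 4. The block (same-set libraries paired across days) also mattered from day 26 to day 28, with 28 members lower, 7 with no block and 5 to 35 with single libraries left out. Among paralogue ratios dropping it ended the call of PSAD1/PSAD2 from young to mature leaves (-0.17), and it ended no other.

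Some members that did not pass from young to mature leaves changed direction. Quantile normalization gave 0.20 for PSBO1, 0.20 for PSBP1, 0.12 for PSBX, 0.09 for PSBY, 0.12 for PSAD2, 0.07 for PSAE1, 0.21 for PSAF, 0.17 for PSAG, 0.01 for PSAH1, 0.10 for PSAL, 0.20 for PSAO and 0.07 for ATPC1. With rescaled nuclear genes and without day 4, in that order, PSBQ2 was at -0.07 and -0.05, PSBW at -0.13 and -0.12 and FNR2 at -0.10 and -0.12. With single libraries left out the ranges were -0.17 to 0.06 (PSBP1), -0.02 to 0.19 (PSBQ2), -0.03 to 0.06 (PSBW), -0.30 to 0.22 (PSBY), -0.18 to 0.12 (PSAD2), -0.17 to 0.10 (PSAF), -0.25 to 0.19 (PSAG), -0.35 to 0.11 (PSAH1), -0.13 to 0.01 (PSAO), -0.23 to 0.16 (FNR1), -0.07 to 0.17 (FNR2) and -0.22 to 0.14 (ATPC1). PSBY was called higher without the day 4 library of set 2 and lower without that of set 1. The log2 ratios from young to mature leaves then ranged from -0.21 to -0.11 (PSAD1/PSAD2), -0.07 to 0.06 (PSAE1/PSAE2), -0.09 to 0.04 (PETE1/PETE2) and 0.20 to 0.41 (FD1/FD2), and from mature to old leaves from -0.21 to -0.13 (PSBO1/PSBO2), -0.07 to 0.03 (PSAD1/PSAD2) and 0.17 to 0.34 (PETE1/PETE2). Where libraries were left out, fewer samples carried the fit; otherwise the cause was not tested.

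Crossing days shifted by -1.16 to -0.11 days with rescaled nuclear genes and by -1.48 to 0.18 days with days 10 to 20 as reference, and ATPD stayed earliest and PGR5 latest under both. With 2 libraries a day, single steps are less certain than stages, and values near 1 FPKM are compressed.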
